A study of Homo sapiens and Homo sapiens
Mus with 12 samples.

Results

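Keratins, vimentin, nestin, the nuclear lamins LMNA and LMNB1, and the linker protein plectin were followed in UM-UC-3 bladder cancer cells after knockdown of the cadherin gene CDH11. The members are 10 genes taken by name, KRT7, KRT8, KRT18, KRT19, KRT80, VIM, NES, LMNA, LMNB1 and PLEC, out of 21479 genes listed for the cultured cells and 26813 human genes listed for the xenograft tumors. In cultured CDH11 KD cells PLEC, LMNB1 and LMNA fell with each hairpin, VIM rose with sh#2 and KRT18 rose with sh#1. In the tumors none of the members passed the threshold.

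Intermediate filaments are rope-like polymers of coiled-coil proteins. Epithelial cells carry keratins, in which a basic type II chain such as KRT7, KRT8 or KRT80 pairs with an acidic type I chain such as KRT18 or KRT19, and KRT8 with KRT18 is the pair of simple epithelia. Mesenchymal cells carry vimentin, nestin marks progenitor and some dividing cells, lamins form the meshwork under the inner nuclear membrane, and plectin ties intermediate filaments to hemidesmosomes, actin and microtubules. A shift of carcinoma cells from keratins toward vimentin is a classical mark of the epithelial to mesenchymal transition.

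UM-UC-3 is a human cell line of advanced bladder cancer. Cells were infected with lentivirus coding for GFP and for a nonsilencing hairpin (shCtrl) or either of 2 hairpins against CDH11 (sh#1, sh#2), and GFP-positive cells were sorted, so every group, shCtrl included, carries a lentiviral vector and no uninfected cells were in the comparison. Cultured cells, precultured for 24 hours, gave 3 libraries per group. Tumors, 5 per group, came from the same lines injected subcutaneously in Matrigel into male BALB/cAJcl-nu/nu (nude) mice aged 5 weeks and were sampled after 4 weeks, and nude mice lack mature T cells but keep other host cells. Nothing states that the libraries of a cultured group came from separate cultures, so the p-values there measure only the spread between these libraries, which may be technical. No repeat of the infection is stated for any group. A hairpin's effect thus cannot be told apart from other differences between the infected lines.

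Between 2273180 and 2777020 reads per cultured library and between 414849 and 1248980 per tumor were counted on human genes. At these depths 3 counts, taken here as the limit of detection per library, equal 1.06 to 1.46 normalized CPM, counts scaled to a common library total, in cultured cells and 2.41 to 8.32 in tumors. CDH11 itself had 2, 4 and 4 counts in the shCtrl cells, at most 1 with sh#1 and at most 2 with sh#2. Counts so near the limit of detection cannot measure the knockdown. The paper reports that CDH11 mRNA and protein were significantly lower in the CDH11 KD cells than in shCtrl cells. In the tumors the CDH11 counts, not scaled to depth, were 5 to 32 with shCtrl, 1 to 9 with sh#1 and 2 to 14 with sh#2, and the groups overlapped. All shCtrl tumors belonged to library mix 1, all sh#1 tumors to mix 2 and all sh#2 tumors to mix 3, so mix and hairpin cannot be told apart. The sh#1 tumor 1 had the lowest total, and 30.02% of its human and mouse counts fell on mouse genes, against 10.4% to 18.8% in the other tumors.

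Levels were compared between members after division by the length of the canonical transcript, as mean CPM per kb in cultured shCtrl cells. VIM stood highest with 1039, followed by LMNA with 131.4, KRT18 with 92.4, KRT8 with 67.1, LMNB1 with 32.9 and PLEC with 16.3. KRT7 with 1.96, KRT80 with 1.27, KRT19 with 0.467 and NES with 0.0228 lay far below. The ranges over the 3 libraries overlapped only between KRT7 and KRT80 and between KRT80 and KRT19, so neighbors from VIM down to KRT7 were apart beyond their spread. With each hairpin the order was the same except that KRT18 stood above LMNA in sh#1 cells (130.3 to 137.5 against 93.7 to 100.1 CPM per kb) and in sh#2 cells (94.8 to 100.6 against 82.6 to 92.6). This scale assumes reads over the whole transcript.

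Epithelial genes other than the keratins were near the limit of detection in the cultured cells. Of 25 genes of an epithelial programme, all 25 had a mean under 10 counts and 10 were at 0 in every cultured library, among them CDH1, EPCAM, ESRP1, GRHL2 and ELF3. Their summed level was 8.66 to 13.5 CPM in shCtrl, 9.84 to 10.4 in sh#1 and 10.3 to 15.3 in sh#2 cells. Of 28 genes of a mesenchymal programme, 13 had a mean under 10 counts and 3 were at 0 in every cultured library. Counts per library were 199 to 268 for the repressor ZEB1, 77 to 186 for the matrix protein SPARC and 57 to 106 for N-cadherin (CDH2), and lower for ZEB2 (10 to 28), fibronectin (FN1, 6 to 32), TWIST1 (6 to 19) and SNAI2 (2 to 25). Of the 5 keratin members, only KRT8 and KRT18 had over 20 counts in a cultured library. Keratin expression was thus found without the defining epithelial markers.

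KRT8 (ENSG00000170421, chromosome 12, 52897187 to 52949954, minus strand) and KRT18 (ENSG00000111057, chromosome 12, 52948871 to 52952906, plus strand) are neighbors whose gene bodies overlap by 1084 nt on opposite strands. Strand use in counting is not given in the sources used here, so reads of that stretch cannot be told apart. Both genes also have many processed copies elsewhere in the genome. Among all stretches of 75 nt, the read length, in the canonical transcripts, 18.8% of those of KRT8 occurred without mismatch in annotated transcripts of 12 other genes and 6.50% of those of KRT18 in 14 others, all of them KRT8 or KRT18 pseudogenes. A stretch of each gene is shown because a read of it would match the keratin and its copies equally well. All 75 bases are shared, so none is set in capitals. The KRT18 stretch lies in exon 4 (chr12:52951481-52951555, plus strand, hg38) and recurs in 2 other genes, and the KRT8 stretch in exon 2 (chr12:52901923-52901997, minus strand, hg38) recurs in 3.
KRT18: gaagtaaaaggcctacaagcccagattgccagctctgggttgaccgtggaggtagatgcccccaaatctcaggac
KRT8: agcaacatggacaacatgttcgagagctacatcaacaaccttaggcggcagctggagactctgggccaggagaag
Values of KRT8 and KRT18 are uncertain because of such shared stretches. How reads of these stretches were counted is not given in the sources used here, so the extent is not known. In the tumors the counts of 8 KRT8 pseudogenes summed to 77 counts over all tumors against 1240 for KRT8, and 23 KRT18 pseudogenes to 135 against 3714 for KRT18. VIM, LMNA, LMNB1, KRT7, KRT19, KRT80 and NES shared no such stretch with another gene, and PLEC shared 14 of its 14730 with EPPK1.

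For each comparison the counts were fitted over all genes with edgeR's quasi-likelihood test, and a gene is said to rise, fall or be called where its Benjamini-Hochberg adjusted p (q) was under 0.05 in cultured cells or 0.1 in tumors. Of the members, 8 passed the low-count filter in cultured cells and could be tested. KRT19 and NES did not, with at most 3 counts and 1 count per library.

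Cultured sh#1 cells were compared with shCtrl cells to see how cells with the first hairpin differed. This comparison called 1 of the 8 tested members higher and 3 lower. Over all 9859 genes tested, 11.8% were called higher and 10.6% lower. The comparison of sh#2 with shCtrl also called 1 higher and 3 lower, beside 19.5% higher and 18.8% lower of all genes. With the libraries of both hairpins as a single CDH11 KD group, 0 members were called higher and 3 lower, beside 9.12% and 8.32% of all genes. The hairpin comparisons share the shCtrl libraries. The median log2 fold change of the tested members was -0.04 with sh#1 and -0.24 with sh#2, and that of all genes -0.01 with each hairpin. The share of all genes whose groups did not overlap was not computed, so a lack of overlap is only described below.

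**Figure D1:**
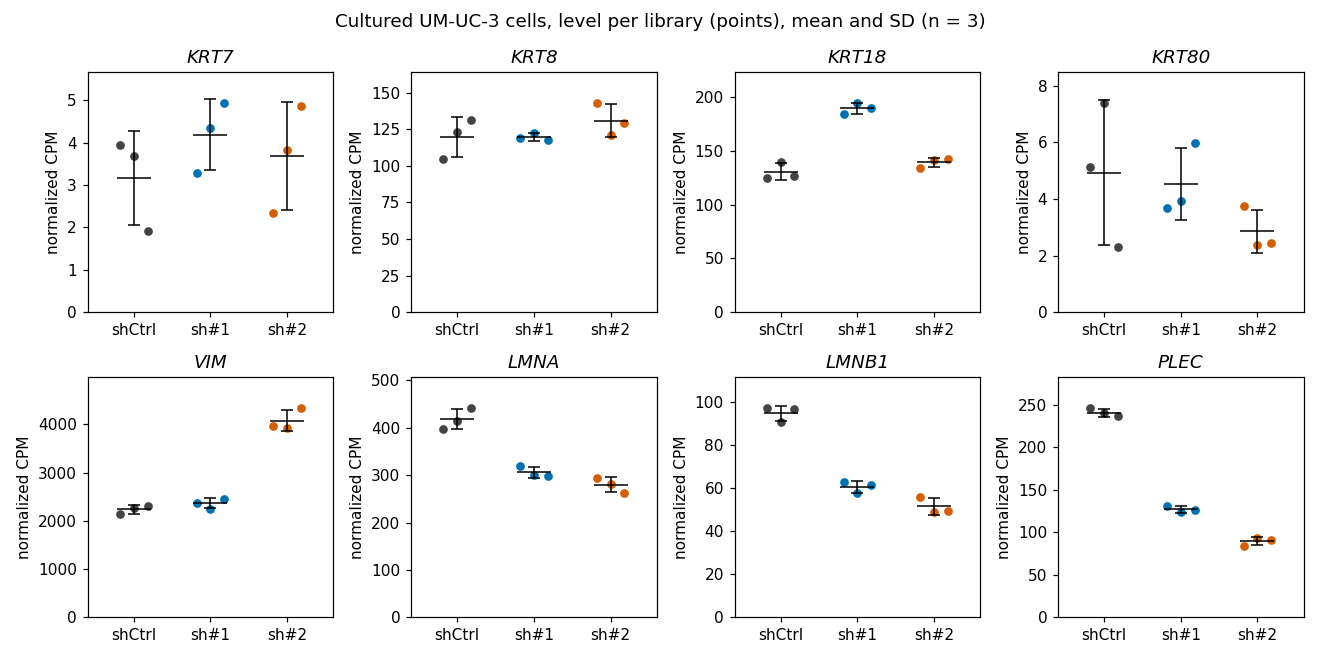
Normalized CPM of the 8 tested members in each cultured library (points, n = 3 per group) with the group mean and SD (bars), on linear axes from 0. PLEC, LMNA and LMNB1 are lower in all CDH11 KD libraries than in all shCtrl libraries, VIM is high in the sh#2 libraries, from 3931 to 4331, and KRT18 is high in the sh#1 libraries, from 184.1 to 194.3.

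PLEC (ENSG00000178209, chromosome 8, 143915153 to 143976734, minus strand), the linker, gave the largest change among the members. Its level was 245.6, 239.9 and 236.3 CPM in the shCtrl libraries, 131.2, 123.9 and 126.1 with sh#1 and 84.5, 93.7 and 91.6 with sh#2. The 3 groups did not overlap, with shCtrl highest and sh#2 lowest. PLEC was 1.89-fold lower with sh#1 (log2 fold change -0.92 ± 0.08 standard error, edgeR q = 6.98e-15) and 2.68-fold lower with sh#2 (-1.42, standard error 0.08, q = 2.22e-21). The fall was smaller with sh#1 than with sh#2, a difference of 0.50 on the log2 scale (standard error 0.09, edgeR q = 1.35e-05). In CDH11 KD as a whole the log2 fold change was -1.14 (standard error 0.13, edgeR q = 9.13e-06).

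The PLEC transcript is long and rich in GC, 14804 nt with 66.8% GC. Genes of that kind tended to lower values here as a class. Among 32 tested genes with transcripts over 8000 nt and over 60% GC, PLEC included, the median in CDH11 KD was -0.32 on the log2 scale. Of the class 25.0% were called lower, against 8.30% of the 9693 genes with a canonical transcript. With sh#1 the median was -0.27 and with sh#2 -0.33, so PLEC lay below the median of its class with each hairpin. The part of length and GC content in the PLEC result was not tested.

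The lamins fell with both hairpins. LMNA (ENSG00000160789, chromosome 1, 156082573 to 156140081, plus strand), which encodes lamins A and C, was at 398.0, 414.5 and 440.5 CPM in shCtrl, at 318.2, 301.2 and 297.7 with sh#1 and at 294.4, 281.9 and 262.5 with sh#2. Each CDH11 KD library lay below each shCtrl library. LMNA changed by -0.45 on the log2 scale with sh#1 (standard error 0.06, edgeR q = 2.25e-07) and -0.58 with sh#2 (standard error 0.07, edgeR q = 2.12e-10). The hairpins were not called apart for LMNA, with a difference of 0.13 (2 standard errors either side, -0.01 to 0.26).

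LMNB1 (ENSG00000113368, chromosome 5, 126776623 to 126837020, plus strand) encodes lamin B1, which stays farnesylated and membrane bound. Its level was 97.2, 91.0 and 96.8 CPM in shCtrl, 63.1, 57.8 and 61.6 with sh#1 and 56.0, 49.2 and 49.7 with sh#2. The shCtrl libraries were again apart from all others, and sh#2 lay just below sh#1. LMNB1 was 1.56-fold lower with sh#1 (log2 fold change -0.64, standard error 0.10, edgeR q = 2.55e-06) and 1.84-fold lower with sh#2 (-0.88, standard error 0.11, edgeR q = 2.1e-09). The difference between hairpins, 0.24, was not called (edgeR q = 0.135, 2 standard errors either side, 0.00 to 0.47). In CDH11 KD as a whole LMNA changed by -0.51 (standard error 0.08, edgeR q = 0.000357) and LMNB1 by -0.75 (standard error 0.11, edgeR q = 0.000118).

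The third lamin gene, LMNB2, is not a member but completes the family. It averaged 152.1 ± 5.65 CPM in shCtrl (SD, n = 3), 121.6 ± 9.57 with sh#1 and 72.9 ± 8.32 with sh#2. LMNB2 fell by 0.32 on the log2 scale with sh#1 (edgeR q = 0.00386) and by 1.06 with sh#2 (edgeR q = 9.55e-14), and the hairpins differed by 0.74 (edgeR q = 3.98e-08). All 3 lamin genes were thus lower with each hairpin.

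Of 22 genes whose products bind, anchor or process lamins, 21 were tested in cultured cells. With sh#1 2 were higher and 3 lower, at a median of -0.14 on the log2 scale, beside 11.8% and 10.6% of all genes. With sh#2 3 were higher and 4 lower, at a median of -0.09, beside 19.5% and 18.8% of all genes. The shares of called partners were thus near those of all genes in each direction. FNTA, a subunit of the farnesyltransferase that modifies B-type lamins and prelamin A, rose by 0.47 with sh#1 and 0.72 with sh#2 on the log2 scale. ICMT, the methyltransferase that acts after farnesylation, fell by 0.47 and 0.34. With sh#2 the lamin B receptor gene LBR fell by 0.75, while emerin (EMD), an inner membrane protein, rose by 0.50 and SYNE2, which links the nucleus to the cytoskeleton, rose by 0.47. LBR, EMD and SYNE2 also differed between hairpins, by 0.53, -0.41 and -0.66 for sh#1 minus sh#2, and so did the nucleoporin NUP153, by -0.43. The calls of FNTA, of EMD and SYNE2 and of ICMT with sh#1 held in all 14 alternatives run for each hairpin. LEMD2 (0.44) and TOR1AIP2 (-0.35), inner membrane proteins called with sh#1, each lost the call in 6 of 14 alternatives. Both calls were lost with DESeq2 and without sh#1 replicate 1, sh#1 replicate 2 or shCtrl replicate 2. The LEMD2 call was also lost without sh#1 replicate 3 or shCtrl replicate 1, and the TOR1AIP2 call with no low-count filter and without shCtrl replicate 3. The LBR difference lost its call without sh#1 replicate 1 or sh#2 replicate 3. The NUP153 difference lost its call without either of these, without sh#2 replicate 1 and with DESeq2. The other called partners, named after their values were seen, were BANF1 (-0.28 with sh#1), TMPO (-0.22 with sh#2) and SYNE3 (-2.48 with sh#2, from a mean of 9.11 counts).

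**Figure D2:**
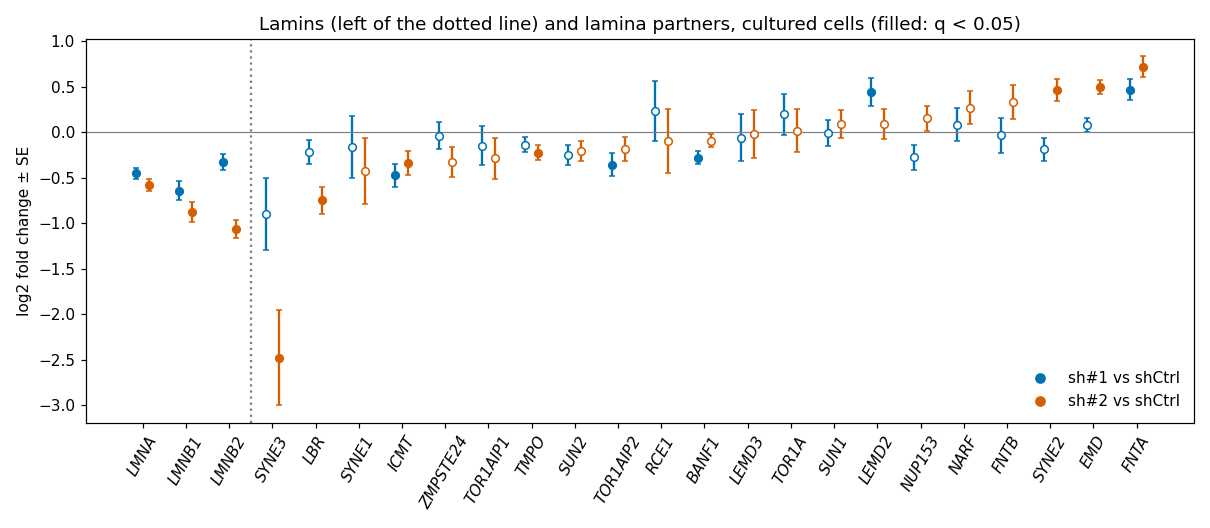
Log2 fold change against shCtrl in cultured cells (points, bars are standard errors) for the 3 lamin genes, left of the dotted line, and 21 tested lamina partners ordered by their sh#2 value; filled points passed q under 0.05. The lamin points are all below 0 and filled, while the partners spread to both sides, from SYNE3 at -2.48 to FNTA at 0.72 with sh#2.

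VIM (ENSG00000026025, chromosome 10, 17228241 to 17237593, plus strand), the mesenchymal filament, separated the hairpins. It stood at 2140, 2262 and 2309 CPM in shCtrl and at 2380, 2255 and 2459 with sh#1, and these groups overlapped. With sh#2 the level was 3977, 3931 and 4331, above every other library. VIM was 1.82-fold higher with sh#2 (log2 fold change 0.87, standard error 0.06, edgeR q = 1.91e-19). With sh#1 the log2 fold change was 0.08 and not called (2 standard errors either side, -0.03 to 0.19). The difference of sh#1 from sh#2 was -0.79 (standard error 0.06, edgeR q = 3.89e-17). In CDH11 KD as a whole VIM was not called (0.53, standard error 0.23, edgeR q = 0.155), and it was called when the hairpins were fitted as separate groups and then averaged (0.47, edgeR q = 1.09e-11). The gene body of VIM overlaps that of the antisense gene VIM-AS1 by 1778 nt, and reads of VIM and VIM-AS1 cannot be told apart there without strand.

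KRT18, the acidic chain of the simple epithelial pair, showed the opposite division. Its level was 125.2, 139.4 and 126.9 CPM in shCtrl, 184.1, 194.3 and 189.9 with sh#1 and 133.9, 141.4 and 142.2 with sh#2. Only the sh#1 libraries stood apart, above all others. KRT18 was 1.45-fold higher with sh#1 (log2 fold change 0.54, standard error 0.08, edgeR q = 2.68e-07). With sh#2 the value was 0.09 and not called (2 standard errors either side, -0.07 to 0.26), and sh#1 exceeded sh#2 by 0.44 (standard error 0.08, edgeR q = 1.63e-05). In CDH11 KD as a whole KRT18 missed the threshold (0.34, standard error 0.13, edgeR q = 0.0737). It was called by the averaged fit (0.32, edgeR q = 0.000279) and without sh#2 replicate 1 (0.39, edgeR q = 0.0375).

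KRT8, its basic partner, was not called in any comparison. The level was 104.7, 123.0 and 131.5 CPM in shCtrl, 118.9, 122.6 and 117.3 with sh#1 and 142.8, 120.9 and 129.1 with sh#2. All 3 groups overlapped. On the log2 scale KRT8 differed from shCtrl by 0.00 with sh#1 (2 standard errors either side, -0.18 to 0.18) and 0.13 with sh#2 (-0.05 to 0.31). The sign of the sh#1 value turned in 5 of 14 alternatives.

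The ratio of KRT18 to KRT8 counts was taken as a measure of the pair within a library, with no test. It was 1.20, 1.13 and 0.965 in the shCtrl libraries, 1.55, 1.59 and 1.62 with sh#1 and 0.938, 1.17 and 1.10 with sh#2. Every sh#1 library lay above every other library, and sh#2 overlapped shCtrl. As a log2 difference of means, sh#1 exceeded shCtrl by 0.53 and sh#2 differed by -0.04.

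KRT7 and KRT80, both type II keratins, were close to the limit of detection. KRT7 (ENSG00000135480, chromosome 12, 52232520 to 52252186, plus strand), found in bladder and other ductal epithelia, had from 5 to 10 counts per library in shCtrl, from 8 to 14 with sh#1 and from 5 to 10 with sh#2. KRT80 (ENSG00000167767, chromosome 12, 52168996 to 52192014, minus strand) had 6 to 18 counts with shCtrl, 9 to 17 with sh#1 and 5 to 8 with sh#2. The groups overlapped for both genes. With 2 standard errors either side, the sh#2 value spanned -0.68 to 1.10 for KRT7 and -1.65 to 0.13 for KRT80. Changes within those bounds remain possible at this depth. KRT19 (ENSG00000171345, chromosome 17, 41523617 to 41528308, minus strand), a keratin of simple and basal epithelia, had 5 counts over the 3 shCtrl libraries, 1 over sh#1 and 4 over sh#2. NES (ENSG00000132688, chromosome 1, 156668763 to 156677407, minus strand) had 1, 2 and 1. No fold is given for KRT19 and NES, since no library exceeded 3 counts.

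**Figure D3:**
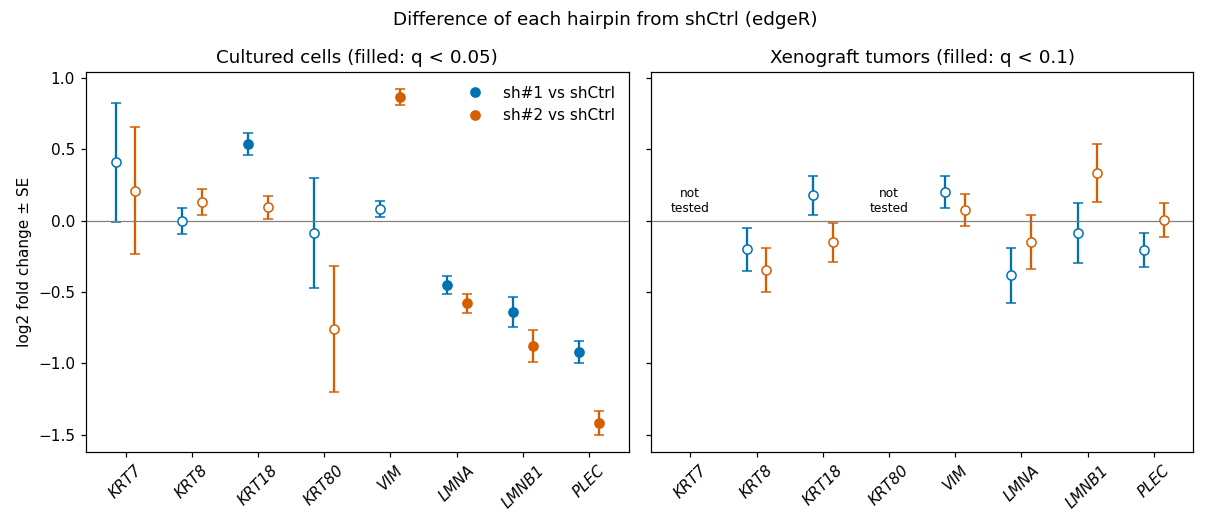
Log2 fold change of each member against shCtrl for sh#1 and sh#2 (points, bars are standard errors), cultured cells on the left and tumors on the right on the same axis; filled points passed q under 0.05 in cultured cells or under 0.1 in tumors. In cultured cells LMNA, LMNB1 and PLEC are filled for each hairpin, VIM for sh#2 and KRT18 for sh#1, and no tumor point is filled.

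Between sh#1 and sh#2 cells themselves, 2 members were called higher in sh#1, PLEC and KRT18, and 1 lower, VIM. Over all genes, 11.2% were called higher and 13.5% lower in this comparison. PLEC was lower than shCtrl with both hairpins and differed in size, while KRT18 and VIM were each called with a single hairpin and also differed between the hairpins.

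The balance of epithelial to mesenchymal filaments was read as the log2 ratio of summed counts of the 5 keratins to VIM counts within a library, with no test. It was -3.16, -3.05 and -3.13 in shCtrl, -2.94, -2.79 and -2.95 with sh#1 and -3.81, -3.87 and -3.96 with sh#2. The groups did not overlap and lay on both sides of shCtrl, 0.22 higher with sh#1 and 0.77 lower with sh#2. In plain counts there were 8.65 ± 0.352 VIM reads per read of the 5 keratins in shCtrl (SD, n = 3), 7.45 ± 0.442 with sh#1 and 14.7 ± 0.781 with sh#2. VIM reads outnumbered the reads of these 5 keratins in every library. The ratio leaves out keratins that are not members, such as KRT10 with 138, 152 and 137 counts in the shCtrl libraries.

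**Figure D4:**
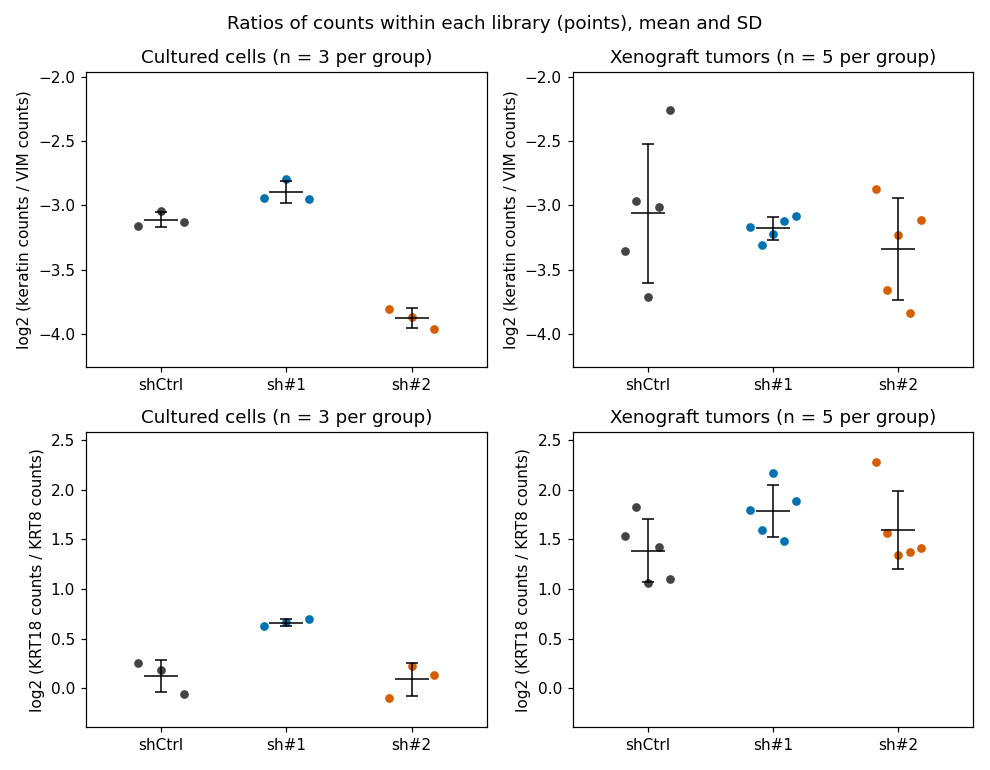
Log2 ratio of keratin to VIM counts (top) and of KRT18 to KRT8 counts (bottom) in each library (points) with group mean and SD, cultured cells on the left and tumors on the right, on the same axis within a row. In cultured cells sh#2 is low for the first ratio, from -3.96 to -3.81, and sh#1 is high for the second, from 0.63 to 0.69, while the tumor groups overlap.

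The genes whose pattern over the 9 cultured libraries was most like that of a member were sought among 5398 genes by the root mean square difference of centered log2 levels. For KRT18 these were TCP1 (0.07), CCZ1B (0.08) and IRF2BP2 (0.08). For VIM they were PTTG1IP (0.05), LDHA (0.06) and ALDOA (0.07), of which LDHA and ALDOA encode enzymes of lactate formation and glycolysis. For LMNA they were DGKD (0.07), MORF4L1 (0.08) and NDST1 (0.08). Among the members themselves, LMNA and LMNB1 were the most alike pair (0.13) and VIM and PLEC the least (0.93).

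Most other intermediate filament genes were below the low-count filter. Of 63 such genes, 6 passed the filter in cultured cells, with 2 called higher and 1 lower with sh#1 (11.8% and 10.6% of all genes) and 1 called each way with sh#2 (19.5% and 18.8% of all genes), numbers too small to set apart from all genes. Apart from LMNB2, the type I keratin KRT10 rose from 56.3 ± 5.34 (SD, n = 3) to 73.7 ± 2.98 CPM with sh#1 (log2 fold change 0.39, edgeR q = 0.00733), a call lost without shCtrl replicate 3. The lens filament gene BFSP1 rose by 0.81 with sh#2 (edgeR q = 0.0027), and sh#1 was lower than sh#2 by 0.84 (edgeR q = 0.00326). Named after its values were seen, the neurofilament gene NEFL rose by 1.19 with sh#1 and by 0.92 in CDH11 KD as a whole, from a mean of 19.4 counts.

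Among 23 plakins, desmosomal genes and hemidesmosomal partners of filaments, 9 were tested. CSNK1A1, a kinase that acts on keratin filament organization among many substrates, rose with each hairpin (0.50 and 0.35 on the log2 scale). ITGA6, the integrin chain of hemidesmosomes to which plectin binds through the beta chain, fell by 0.53 with sh#1 (edgeR q = 0.00436) and by 0.43 in CDH11 KD as a whole (edgeR q = 0.0378), and the latter call was lost in 10 of 15 alternatives, including the fits without any one shCtrl or sh#1 replicate or without sh#2 replicate 2. With sh#1 1 gene was higher and 1 lower, near the shares over all genes of 11.8% and 10.6%. With sh#2 1 was higher and 0 lower (19.5% and 18.8% of all genes), and 2 of the 9 had an unadjusted p under 0.05 (46.0% of all genes). The plakins MACF1 and DST, relatives of plectin, were tested and not called.

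The mesenchymal programme, of which VIM is a standard marker, was compared in the same way. Of 28 genes 16 were tested, with 1 higher and 7 lower with sh#1, beside 11.8% and 10.6% of all genes, and 6 higher and 1 lower with sh#2, beside 19.5% and 18.8%. The medians were -0.51 and 0.12. Compared directly, sh#1 was lower than sh#2 for 8 genes and higher for 0, beside 13.5% and 11.2% of all genes (9 at an unadjusted p under 0.05, beside 35.5% of all genes). TGFBI, a matrix adhesion protein, averaged 110.1 ± 12.4 CPM in shCtrl (SD, n = 3), 67.4 ± 3.24 with sh#1 and 181.8 ± 10.005 with sh#2. The matrix protein SPARC fell with each hairpin (-0.66 and -0.74 on the log2 scale). Fibronectin (FN1) fell with sh#1 (-1.53) and collagen COL6A1 rose with sh#2 (1.18). FSTL1, a secreted glycoprotein, was 0.87 lower with sh#1 than with sh#2. The calls of TGFBI, SPARC, FN1, COL6A1 and FSTL1 named here held in all alternatives run for them. Of the other markers counted above, CDH2 fell with sh#1 (-0.58 on the log2 scale). With sh#2 ZEB2 rose (0.80, from a mean of 17.9 counts) and SNAI2 rose (2.75, from a mean of 9.0 counts). ZEB1 and TWIST1 were not called.

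In the tumors, KRT8, KRT18, VIM, LMNA, LMNB1 and PLEC passed the low-count filter, so 6 of the 10 members were tested in each comparison. Neither hairpin nor both together gave a called member, by edgeR or by DESeq2. At an unadjusted p under 0.05 stood 1 member in CDH11 KD against shCtrl, 0 with sh#1, 1 with sh#2 and 1 between sh#1 and sh#2. The shares of all genes at that p were 12.7%, 11.2%, 13.7% and 9.94% in the same order, so these numbers are near those shares. Of all 9184 genes tested, 0.697% were called higher and 0.817% lower in CDH11 KD, and 0.773% and 0.708% with sh#1. With sh#2 1.36% and 1.32% were called, and in sh#1 against sh#2 0.642% and 0.544%. At such shares of calls a list of 6 genes would rarely hold a call. Every fit that left out 1 tumor, sh#1 tumor 1 included, also called 0 members. The tumors hold human cells within mouse tissue. Their values were scaled to the human counts of each tumor, so they show shares of human counts and not amounts per cell.

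**Figure D5:**
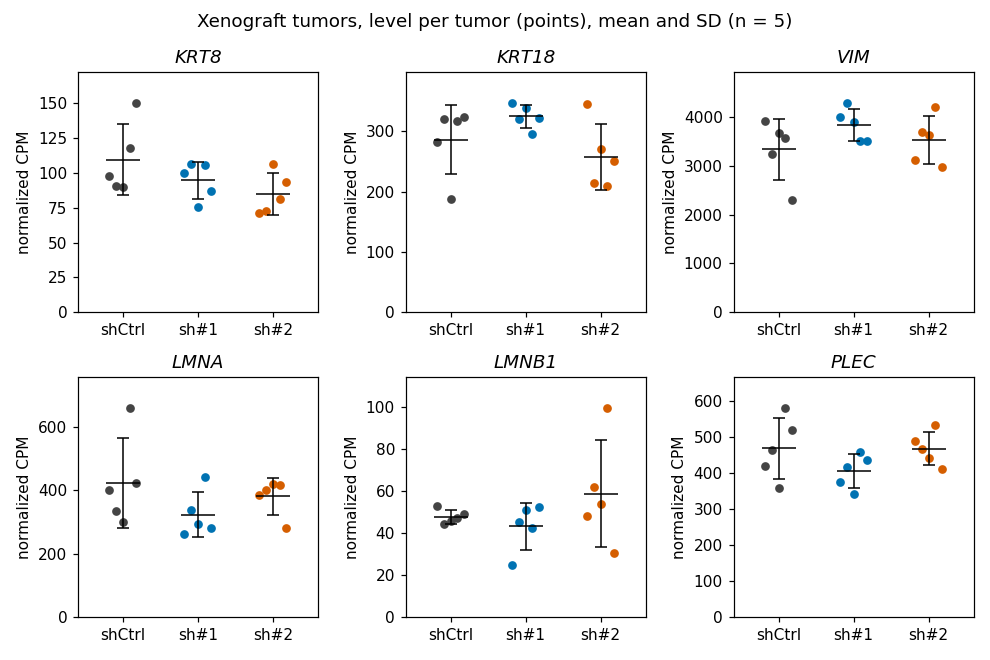
Normalized CPM of the 6 tested members in each xenograft tumor (points, n = 5 per group) with the group mean and SD (bars), on linear axes from 0. The groups overlap for every gene. The highest LMNA value is 657 in a shCtrl tumor, and the highest LMNB1 value is 99.2 in an sh#2 tumor.

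KRT8 was the member at an unadjusted p under 0.05 in CDH11 KD and in sh#2 tumors against shCtrl. Its level in tumors 1 to 5 was 97.9, 90.9, 90.1, 118.3 and 150.1 CPM with shCtrl, 99.9, 106.3, 75.3, 105.5 and 86.9 with sh#1 and 71.1, 72.5, 106.3, 81.1 and 93.6 with sh#2. The groups overlapped, with 3 of 5 sh#2 tumors below all shCtrl tumors. Relative to shCtrl, KRT8 changed by -0.27 on the log2 scale in CDH11 KD (standard error 0.13, edgeR q = 0.385), -0.20 with sh#1 and -0.35 with sh#2 (standard error 0.15, edgeR q = 0.295).

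KRT18 stood at 283.3, 321.3, 188.1, 316.6 and 323.3 CPM in the shCtrl tumors, at 346.8, 321.0, 338.4, 295.8 and 322.2 with sh#1 and at 345.5, 214.9, 270.1, 210.2 and 250.2 with sh#2. The shCtrl tumors spanned 188.1 to 323.3, the sh#1 tumors 295.8 to 346.8 and the sh#2 tumors 210.2 to 345.5, so the groups overlapped. On the log2 scale sh#1 tumors differed from shCtrl by 0.18 and sh#2 tumors by -0.15, and the difference of 0.33 between them was not called (standard error 0.14, edgeR q = 0.376). In cultured cells the same difference was 0.44.

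The KRT18 to KRT8 ratio of counts in the tumors was 2.67 ± 0.593 with shCtrl (SD, n = 5), 3.50 ± 0.660 with sh#1 and 3.13 ± 0.983 with sh#2. The groups overlapped. Ratios in all tumors, from 2.09 to 4.86, were above those of all cultured libraries, but the tables of cells and tumors were made separately and no test was run between them.

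VIM was at 3918, 3243, 3676, 3571 and 2306 CPM in the shCtrl tumors, at 4007, 4287, 3898, 3510 and 3503 with sh#1 and at 3118, 3688, 3644, 4206 and 2977 with sh#2. The groups overlapped, and shCtrl tumor 5 was the lowest of all. For VIM the log2 fold change was 0.20 with sh#1 (2 standard errors either side, -0.03 to 0.43) and 0.08 with sh#2 (-0.15 to 0.30). The sh#2 interval lies below the value of 0.87 in cultured sh#2 cells, which comes from the other table, and the difference between the systems was not tested. The log2 ratio of keratin to VIM counts averaged -3.06 with shCtrl, -3.18 with sh#1 and -3.34 with sh#2, within a spread of 0.54 (SD, n = 5) among the shCtrl tumors.

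Mouse host cells express vimentin too. Counts of mouse Vim were 138 to 388 with shCtrl, 266 to 357 with sh#1 and 219 to 574 with sh#2, or 6.78% to 17.7% of the human and mouse VIM counts of a tumor. The highest share belonged to sh#1 tumor 1. How reads were assigned to either species is not given in the sources used here, and the part of host reads in the human VIM values was not tested. Mouse Lmna reached 59 counts, Plec 27, Nes 18 and Lmnb1 12. The mouse skin keratins Krt1, Krt10 and Krt14 were at 0 in most tumors, with at most 14 counts, in a shCtrl tumor. Human NES had at most 2 counts in a tumor.

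LMNA, the A-type lamin gene, spread widely in the shCtrl tumors. Its level was 401.2, 334.3, 298.7, 657.2 and 422.8 CPM with shCtrl, 263.6, 336.8, 292.7, 440.4 and 279.8 with sh#1 and 385.3, 400.3, 420.4, 417.3 and 280.7 with sh#2. The groups overlapped, and shCtrl tumor 4 was far above the rest. For LMNA the log2 fold change was -0.38 with sh#1 (2 standard errors either side, -0.77 to 0.00, edgeR q = 0.467) and -0.15 with sh#2 (-0.53 to 0.23). The cultured value of -0.45 for sh#1 lies inside the first interval, and that of -0.58 for sh#2 lies just outside the second.

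LMNB1 stood at 53.0, 44.4, 45.6, 47.1 and 49.0 CPM in the shCtrl tumors, at 25.0, 45.2, 50.9, 42.4 and 52.5 with sh#1 and at 48.3, 61.8, 53.6, 99.2 and 30.6 with sh#2. The shCtrl tumors were close together, while single sh#1 and sh#2 tumors lay on either side. The value of 25.0 belongs to sh#1 tumor 1 and rests on 9 counts. LMNB1 differed from shCtrl by -0.09 on the log2 scale in sh#1 tumors and by 0.34 in sh#2 tumors (standard error 0.20, edgeR q = 0.493), and 2 standard errors either side gave -0.51 to 0.33 and -0.07 to 0.74, which leave out the cultured values of -0.64 and -0.88.

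PLEC was at 420.5, 464.1, 358.0, 579.0 and 519.3 CPM in the shCtrl tumors, at 374.6, 416.0, 342.6, 458.9 and 435.3 with sh#1 and at 489.1, 466.1, 440.6, 533.6 and 410.6 with sh#2. The groups overlapped. The log2 fold change was -0.20 with sh#1 (2 standard errors either side, -0.44 to 0.04) and 0.00 with sh#2 (-0.24 to 0.24). Both intervals lie above the cultured values of -0.92 and -1.42, from the other table. In the tumors, the 24 tested genes with transcripts over 8000 nt and over 60% GC, PLEC included, had a median log2 fold change of 0.08 in CDH11 KD. The median of that class in cultured cells was of opposite sign.

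The remaining keratins and nestin stayed below the filter in the tumors. KRT7 had from 0 to 5 counts per tumor and KRT80 from 0 to 8. KRT19 had 1 count over all 15 tumors, in an sh#1 tumor. The 16 listed genes of the epithelial programme had means under 10 counts except KLF5, with 16.5, and CDH1 had at most 1 count.

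Of the wider lists, the tumor fit could test 5 other filament genes, 8 linkers, 19 lamina partners, 1 epithelial gene and 10 mesenchymal genes. ITGA6 rose with sh#2 from 40.2 ± 10.1 to 66.3 ± 14.4 CPM (SD, n = 5 each, log2 fold change 0.73, edgeR q = 0.0303). The call was lost when each tumor's mouse to human ratio was a covariate, and without shCtrl replicate 1, sh#2 replicate 1 or sh#2 replicate 2, and in cultured sh#2 cells the ITGA6 mean was below that of shCtrl (34.3 against 43.4 CPM). LEMD3, an inner nuclear membrane protein named after its values were seen, rose with sh#1 (0.87, edgeR q = 0.0776, from a mean of 16.5 counts). This call was lost with DESeq2, with at least 10 counts required in every library, and without shCtrl replicate 1, shCtrl replicate 4, sh#1 replicate 2, sh#1 replicate 3, sh#1 replicate 4 or sh#1 replicate 5. No other gene of the filament, linker, lamina, epithelial or mesenchymal lists was called in a tumor comparison by edgeR. At an unadjusted p under 0.05 with sh#2 stood 0 of the filament genes, 4 linkers, 3 lamina partners, 0 epithelial genes and 1 mesenchymal gene, beside 13.7% of all genes. With sh#1 the numbers were 1, 0, 3, 0 and 0, beside 11.2% of all genes. In CDH11 KD they were 0, 4, 2, 0 and 0, beside 12.7%, and between the hairpins 1, 2, 3, 1 and 2, beside 9.94%.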

How the data were processed

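RNA-seq of 9 cultured libraries and 15 tumors was analysed from raw read counts per gene, which the authors deposited without normalization. Per the paper, single reads of 75 bp were trimmed in CLC Genomics Workbench and mapped to hg38 with RaNAseq (cells), or trimmed with trim galore and mapped with HISAT2 (tumors). The counting tool, strand use and separation of mouse reads are not given in the sources used here. Values were missing for 13 genes of the cultured table, which are not analysed here.

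From these counts, edgeR 4.0.16 in R 4.3.3 (TMM, filterByExpr, robust quasi-likelihood test, Benjamini-Hochberg adjustment) compared both hairpins with shCtrl in 2 groups, and each hairpin in a fit of 3 groups. CPM values use TMM-scaled library sizes and no pseudocount. The members and lists were chosen with earlier results of these data known. A gene of the mesenchymal list is counted there and not reported by name here. Text names all members and CDH11, from each list at most 4 called genes per comparison with the largest change and a mean of at least 20 counts, and the 3 genes most like KRT18, VIM and LMNA among genes averaging 50 counts or more. Positions, transcript lengths and 75 nt matches come from GENCODE 44 on hg38. No library repeated another, since all pairs within groups varied beyond counting noise (chi-square over degrees of freedom at least 1.30). On simulated counts for sh#1 against shCtrl with 200 genes changed 2.5-fold, the fit recovered 99.5% of them in both systems (9689 and 9014 genes). Of the calls, 8.29% were false at q under 0.05 in cultured cells and 9.95% at q under 0.1 in tumors. The spread was set to a fixed value for each system, and genes with few counts were not changed. Recovery of smaller changes, as most of those of the members were, was not simulated. Alternatives were DESeq2 1.42.0, upper quartile scaling, no low-count filter (1 count in some library), at least 10 counts in every library, a replicate block, each replicate left out, pseudogenes summed with their parent, the mean of both hairpins in 3 groups and, for tumors, the mouse to human ratio as covariate.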

Additional observations from a re-analysis of the deposited data

Results flagged for a closer look

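The cultured hairpins differed for 3 members by the direct edgeR test of sh#1 against sh#2. PLEC differed by 0.50 on the log2 scale (edgeR q = 1.35e-05), lower with both hairpins and more so with sh#2. VIM differed by -0.79 (edgeR q = 3.89e-17), and KRT18 by 0.44 (edgeR q = 1.63e-05). Each tested member was also searched, per tumor group of 5, for 1 sample lying apart by Dixon's criterion. This picks about 1 group in 20 by chance and picked 1 of 18 here, LMNA in sh#2 tumor 5, at 280.7 CPM against 385.3 to 420.4 in the other sh#2 tumors.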

How the results depend on the processing

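The cultured calls of PLEC, LMNB1 and LMNA, of VIM with sh#2 and of KRT18 with sh#1 held in all alternatives run for them. In CDH11 KD as a whole 3 members were called in the cultured cells, and 5 in the fit of 3 groups, which added VIM and KRT18. Over all 9859 genes tested, calls rose as well, from 899 higher and 820 lower to 1630 and 1661. For the genes of the other lists, cultured CDH11 KD had 9 calls, 5 with the replicate block, 18 in the fit of 3 groups and 4 to 9 with a replicate left out. In the tumors these lists had 0 calls in CDH11 KD, 1 with DESeq2, 2 with no low-count filter, 1 in the fit of 3 groups and 0 to 3 with a replicate left out. The tumor sh#1 comparison had 1 call, 0 with DESeq2, 3 with no low-count filter, 0 with at least 10 counts in every library and 0 to 3 with a replicate left out. The tumor sh#2 comparison had 1, 3 with DESeq2, 5 with no low-count filter, 0 with the mouse ratio as covariate and 0 to 5 with a replicate left out. For sh#1 against sh#2 in tumors it was 0, 6 with no low-count filter and 0 to 1 with a replicate left out. Calls over all genes shifted between these settings too. In cultured CDH11 KD they were 648 higher and 598 lower with the replicate block, and 458 and 424 without shCtrl replicate 3. In tumor CDH11 KD they were 64 and 75 in the main fit and 110 and 166 with no low-count filter. Without shCtrl replicate 1 they were 21 and 27 there, and without shCtrl replicate 5 they were 197 and 202. The cause of these shifts was not tested.

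Signs turned only for differences that were not called. With no low-count filter, KRT8 in cultured sh#1 gave 0.013 and KRT18 in tumor CDH11 KD -0.0063. PLEC in sh#2 tumors gave -0.00091 with DESeq2, -0.026 with upper quartile scaling, -0.032 with no low-count filter and -0.0085 with at least 10 counts in every library. With a replicate left out, cultured ranges were -0.72 to 0.034 for KRT80 and -0.024 to 0.14 for KRT8 in CDH11 KD, -0.43 to 0.32 for KRT80 and -0.092 to 0.072 for KRT8 with sh#1, -0.059 to 0.45 for KRT7 with sh#2, and -0.044 to 0.45 for KRT7 between hairpins. Tumor ranges were -0.031 to 0.18 for LMNB1 and -0.094 to 0.066 for KRT18 in CDH11 KD, -0.16 to 0.0030 for LMNB1 with sh#1, and -0.040 to 0.13 for VIM, -0.082 to 0.085 for PLEC and -0.25 to 0.064 for LMNA with sh#2.

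Same-numbered samples did not deviate together (0 of 9 cultured pairs and 2 of 15 tumor pairs had a correlation over 0.1), so the numbers were not taken as a pairing. With the replicate block 3 members were called in cultured CDH11 KD, as without it, and over all genes 648 were higher and 598 lower instead of 899 and 820. Depth limits KRT7, KRT19, KRT80 and NES in both systems.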
